A study of Homo sapiens with 72 samples.

Results

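The 10 genes described here encode the cyclins, cyclin-dependent kinases (CDKs) and CDK inhibitors that act in the G1 phase of the cell cycle: the D-type cyclins CCND1, CCND2 and CCND3, the E-type cyclins CCNE1 and CCNE2, the kinases CDK2, CDK4 and CDK6, and the inhibitors CDKN1B (p27) and CDKN2C (p18). They were chosen by name and role, with earlier results of these data known, and are 10 of the 60371 genes listed for each sample. Bulk (population) RNA-seq libraries of polyadenylated RNA were made with a stranded mRNA kit from 72 wells of U2OS, an established line from a human osteosarcoma, with 1 library for each well. The cells were kept for 12 h with the solvent DMSO (18 wells) or with 1 of 6 compounds at 100, 1000 or 10000 nM (3 wells for each compound and dose). The compounds were triptolide, which blocks transcription initiation by RNA polymerase II through the TFIIH subunit XPB, homoharringtonine, which blocks translation elongation at the ribosome, pyrazolanthrone (a JNK inhibitor), nilotinib (an ABL kinase inhibitor), miglitol (an alpha-glucosidase inhibitor) and MK-2206 (an AKT inhibitor). No genetic change was made, so the DMSO wells carry the same line as the treated wells. The labels do not say whether the wells of a group were separate cultures, so each p-value measures the spread between wells, which may be technical.

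Cells commit to division in G1. D-type cyclins bind CDK4 and CDK6 and begin the phosphorylation of the retinoblastoma protein RB, E-type cyclins bind CDK2 and complete it, and the E2F factors set free drive S phase genes, among them the E cyclins themselves. CDKN2C binds CDK4 and CDK6 and keeps D cyclins off them, while CDKN1B binds cyclin E and CDK2 complexes and restrains them. Several of the proteins, cyclin D1 first among them, are short-lived, and the amount of cyclin D1 and p27 is known to be set by both synthesis and degradation. Only mRNA was measured here.

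The label of the line was compared with cell type markers in the DMSO wells. SPARC and COL1A1, made by bone-forming cells, had median levels of 2137 and 452 TPM (a level per transcript length, scaled to the same total in every library), and RUNX2, the regulator of the osteoblast lineage, had 3.81 TPM. The osteoblast genes SP7 and IBSP had a median of 0, and COL1A2 one of 0.07 TPM, so these 3 were absent or nearly so. The epithelial keratins KRT8 and KRT18 had medians of 255 and 358 TPM, with EPCAM at 2.38 and CDH1 at 0.4 TPM, and the 5 blood cell markers had medians of at most 0.18 TPM. Depth ranged from 0.0708 M to 68.3 M expected counts per library (median 38.4 M), and 61 of 72 libraries held at least 30 M. 3 libraries held under 10 M: triptolide 100 nM replicate 2 with 70767 counts, DMSO replicate 10 with 460014 and triptolide 1000 nM replicate 1 with 9628355. In the first of these CCNE2 had 1 count, CDK6 and CDKN1B 2 each, CDKN2C 4, CCND3 5, CCNE1 8, CDK2 9, CCND2 14, CDK4 16.6 and CCND1 18.3, so its CPM values below (replicate 2 at 100 nM of triptolide) rest on few counts.

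Positions are those of the human genome (build GRCh38, GENCODE 44 gene models, from first to last base, exons and introns together). CCND1 is at chr11:69641156-69654474 (plus strand), CCND2 at chr12:4269771-4305353 (plus) and CCND3 at chr6:41934934-42050357 (minus). CCNE1 is at chr19:29811991-29824312 (plus). CDK2, CDK4 and CDKN1B share chromosome 12 with CCND2, at chr12:55966781-55972789 (plus), chr12:57747727-57756013 (minus) and chr12:12685498-12722369 (plus). CDK6 is at chr7:92604921-92836573 (minus) and CDKN2C at chr1:50960745-50974634 (plus).

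RefSeq promoter windows (GRCh38.p14, 250 bases before to 50 after a start) were matched for 6 of the 10 members, CCND3, CCNE1, CDK4, CDK6, CDKN1B and CDKN2C, and not for CCND1, CCND2, CDK2 and CCNE2. The windows of 3 members are shown because, among members with a window, CDKN1B and CCNE1 fell most at 10000 nM of triptolide and CDK4 had the most positive value there (on the TMM scale used below, and negative under mitochondrial scaling). Capitals mark the GC box (GGGCGG, or its reverse complement CCGCCC), which SP1-type factors bind, and the CCAAT box (CCAAT, or ATTGG), which NF-Y binds, and the 2 motifs share no letters in these windows. Each is written 5′ to 3′ along the strand of the gene.
CDKN1B, chr12:12717118-12717417, plus strand: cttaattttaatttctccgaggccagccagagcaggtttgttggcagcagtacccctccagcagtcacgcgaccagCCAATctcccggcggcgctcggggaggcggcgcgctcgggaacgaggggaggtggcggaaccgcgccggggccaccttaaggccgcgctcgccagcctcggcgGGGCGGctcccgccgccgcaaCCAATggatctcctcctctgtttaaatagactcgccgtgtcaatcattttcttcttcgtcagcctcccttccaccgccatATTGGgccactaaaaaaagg
CCNE1, chr19:29811741-29812040, plus strand: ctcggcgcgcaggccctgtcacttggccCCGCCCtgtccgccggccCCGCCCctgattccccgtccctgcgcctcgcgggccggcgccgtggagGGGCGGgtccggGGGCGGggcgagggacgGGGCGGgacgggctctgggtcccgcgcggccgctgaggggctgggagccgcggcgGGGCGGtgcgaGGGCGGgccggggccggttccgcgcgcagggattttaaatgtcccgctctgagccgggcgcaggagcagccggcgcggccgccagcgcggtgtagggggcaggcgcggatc
CDK4, chr12:57752261-57752560, minus strand: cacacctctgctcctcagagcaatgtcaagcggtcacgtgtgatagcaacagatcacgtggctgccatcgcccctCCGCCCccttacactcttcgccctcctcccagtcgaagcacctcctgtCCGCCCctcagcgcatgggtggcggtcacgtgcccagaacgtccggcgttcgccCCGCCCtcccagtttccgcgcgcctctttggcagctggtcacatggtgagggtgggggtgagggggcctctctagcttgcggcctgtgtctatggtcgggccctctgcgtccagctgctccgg
The CCNE1 window held 7 GC boxes and no CCAAT box, the CDK4 window 3 GC boxes and no CCAAT box, and the CDKN1B window 1 GC box and 3 CCAAT boxes. Of all 35116 promoter windows in the table, 45.0% held a GC box and 34.6% a CCAAT box on either strand. The E2F letters TTTCCCGC, TTTCGCGC, TTTGCCGC and TTTGGCGC were searched on both strands and occurred in none of the members' windows and in 3.31% of all windows, and TATAAA occurred in none of the 3 windows shown and in 11.5% of all. These are letter matches in a fixed window and not measured binding.

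Per transcript length, CDK4 mRNA was the most abundant of the 10 in untreated cells and CCNE2 the least. The mean over the 18 DMSO wells was 446 ± 53.3 TPM (SD) for CDK4, 135 ± 40.9 for CCND1 and 128 ± 18.8 for CDK2, with CCND1 and CDK2 within each other's spread. CCNE1 (69.3 ± 7.94), CCND3 (57.2 ± 7.63), CCND2 (51.8 ± 5.57) and CDKN2C (44.8 ± 8.48 TPM) followed, each closer to its neighbour than the sum of their SDs. CDK6 (33.5 ± 4.30 TPM) stood below CDKN2C by less than that sum too, and CDKN1B (19.5 ± 3.78) and CCNE2 (15.7 ± 14.5) came last, within each other's spread. The CCNE2 spread rests on DMSO replicate 10, whose CCNE2 value comes from 16 counts. Treated against untreated wells are compared below in CPM (counts scaled to a common library total) after TMM scaling, which sets the bulk of genes level between libraries and is not divided by length.

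Among the untreated wells, some members varied with the share of counts that came from the 13 mitochondrially encoded mRNAs, a property of each library, and this was computed after the spread had been seen. Over the 17 DMSO wells of at least 10 M counts, log2 CPM of CCND3 was lower where that share was higher (Pearson r = -0.91, p = 1e-05, the smallest p that 100000 permutations can give, adjusted 9.46e-05 over all genes tested, Spearman rho = -0.88, p = 1e-05, and r = -0.85 without the 2 wells farthest from the median share). CDK6 went the other way (r = 0.83, permutation p = 4e-05, adjusted 0.000205, rho = 0.71, p = 0.00193, and r = 0.76 without those 2 wells). For 7 of the 10 members the permutation test of r gave an adjusted p under 0.05, beside 62.9% of the 14145 genes tested (a mean of at least 1 CPM and no value of 0 in these wells), so the members' share was near that of all genes. CCND1 (r = 0.14), CCNE1 (r = 0.22) and CCNE2 (r = 0.47) did not pass. The share was 0.138% to 0.367% in DMSO wells, 0.156% to 0.285% with homoharringtonine and 0.518% to 1.15% with triptolide. With the other 4 compounds it was 0.112% to 0.274% at 100 nM (median 0.179%), 0.146% to 0.278% at 1000 nM (median 0.179%) and 0.237% to 0.387% at 10000 nM (median 0.322%), so it was higher at their top dose. Its part in the results below was not tested, except where values of a fit with this share as a term are given. In bulk samples, fewer cells and less RNA per cell cannot be told apart.

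**Figure D1:**
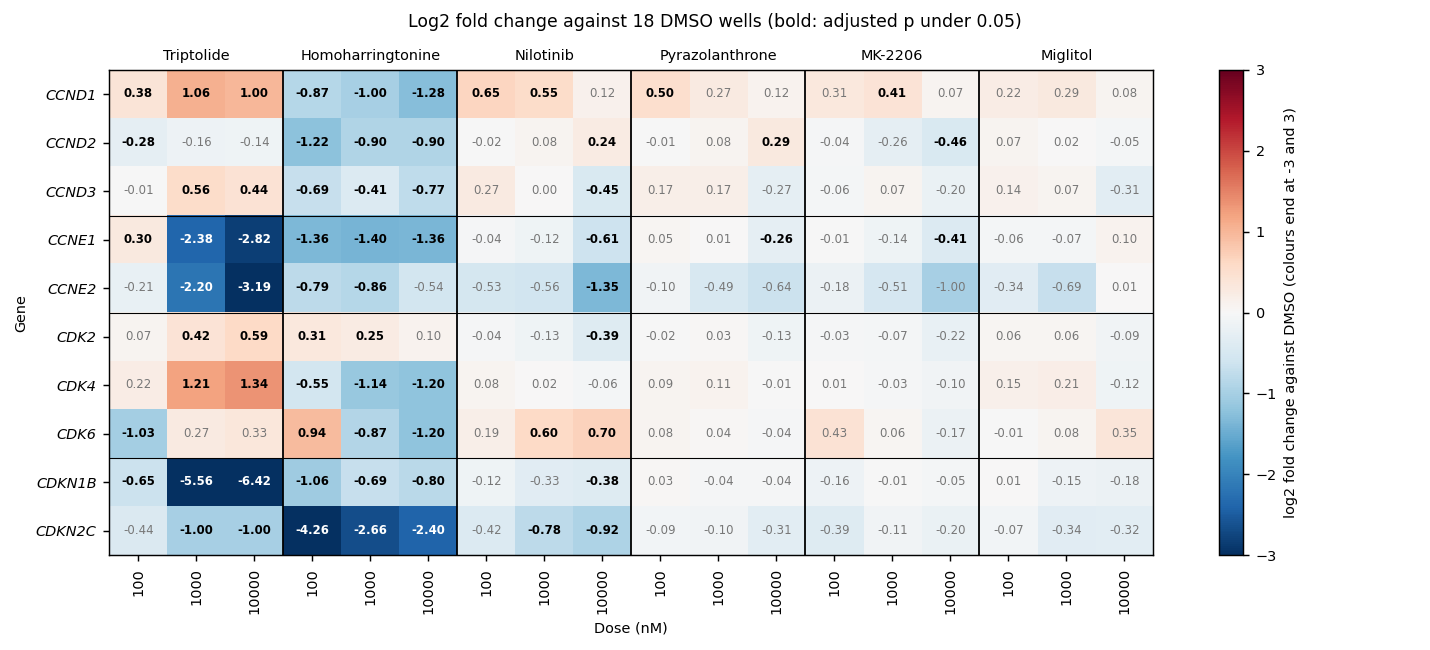
Log2 fold change of each member (rows) against the 18 DMSO wells for each compound and dose in nM (columns), on the TMM scale, in colour and as a printed value, with bold for an adjusted p under 0.05. Homoharringtonine lowered most members at every dose, triptolide gave both signs, and its positive values turn negative when libraries are scaled to mitochondrial mRNAs.

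The 3 wells of each treatment were set against the 18 DMSO wells by edgeR's quasi-likelihood test with Benjamini-Hochberg adjustment over all genes tested, and a member is said to have risen or fallen where its adjusted p was under 0.05. Changes are given on the log2 scale, with standard errors (SE). These 18 comparisons share the DMSO wells. All 10 members passed the filter on low counts in every comparison. With triptolide, 5 of 10 members passed at 100 nM (2 higher, 3 lower), beside 56.8% of all genes tested (24.5% higher, 32.3% lower). At 1000 nM 8 passed (4 and 4), beside 67.4% (28.8% and 38.6%), and at 10000 nM 8 (4 and 4), beside 71.8% (32.2% and 39.7%). The median of the 10 with triptolide was -0.11, 0.05 and 0.10 at the 3 doses, beside -0.16, -0.21 and -0.17 over all genes. With homoharringtonine, all 10 members passed at 100 nM (2 higher, 8 lower), beside 63.4% of all genes (31.1% and 32.3%). At 1000 nM 10 passed (1 and 9), beside 68.4% (35% and 33.4%), and at 10000 nM 8 (0 and 8), beside 74% (36.7% and 37.2%). Their median was -0.83, -0.89 and -1.05, beside -0.03, -0.01 and -0.05 over all genes. With the fold criterion of the study added (log2 fold change above 1 or below -1), triptolide had 1, 5 and 5 members past both criteria at the 3 doses, beside 32.4%, 44.2% and 46.4% of all genes, and homoharringtonine 4, 3 and 5, beside 34.9%, 42.4% and 47%. The share of members called with triptolide was near the share of all genes called at these doses.

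The direction of the triptolide values depends on how libraries are scaled. Without TMM (library sizes only) the log2 values of all genes shifted from their TMM values by a median of -0.34, -0.46 and -0.53 at the 3 triptolide doses. With scaling to the 13 mitochondrial mRNAs, which a separate polymerase makes in the mitochondria, the median shift was -1.66, -2.47 and -2.76. The corresponding median shifts with homoharringtonine were -0.23, -0.14 and -0.04 without TMM and -0.09, -0.08 and -0.27 with mitochondrial scaling. With triptolide at 10000 nM, 4 members were called higher and 4 lower by TMM, 2 and 5 by library sizes only, and 0 and 10 by mitochondrial scaling. With homoharringtonine at 10000 nM the calls were 0 and 8, 0 and 8, and 0 and 9. The files do not tell which scaling is nearest to the amount of mRNA per cell, so a rise with triptolide below means a rise relative to the bulk of genes, and its value under mitochondrial scaling stands beside it.

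**Figure D2:**
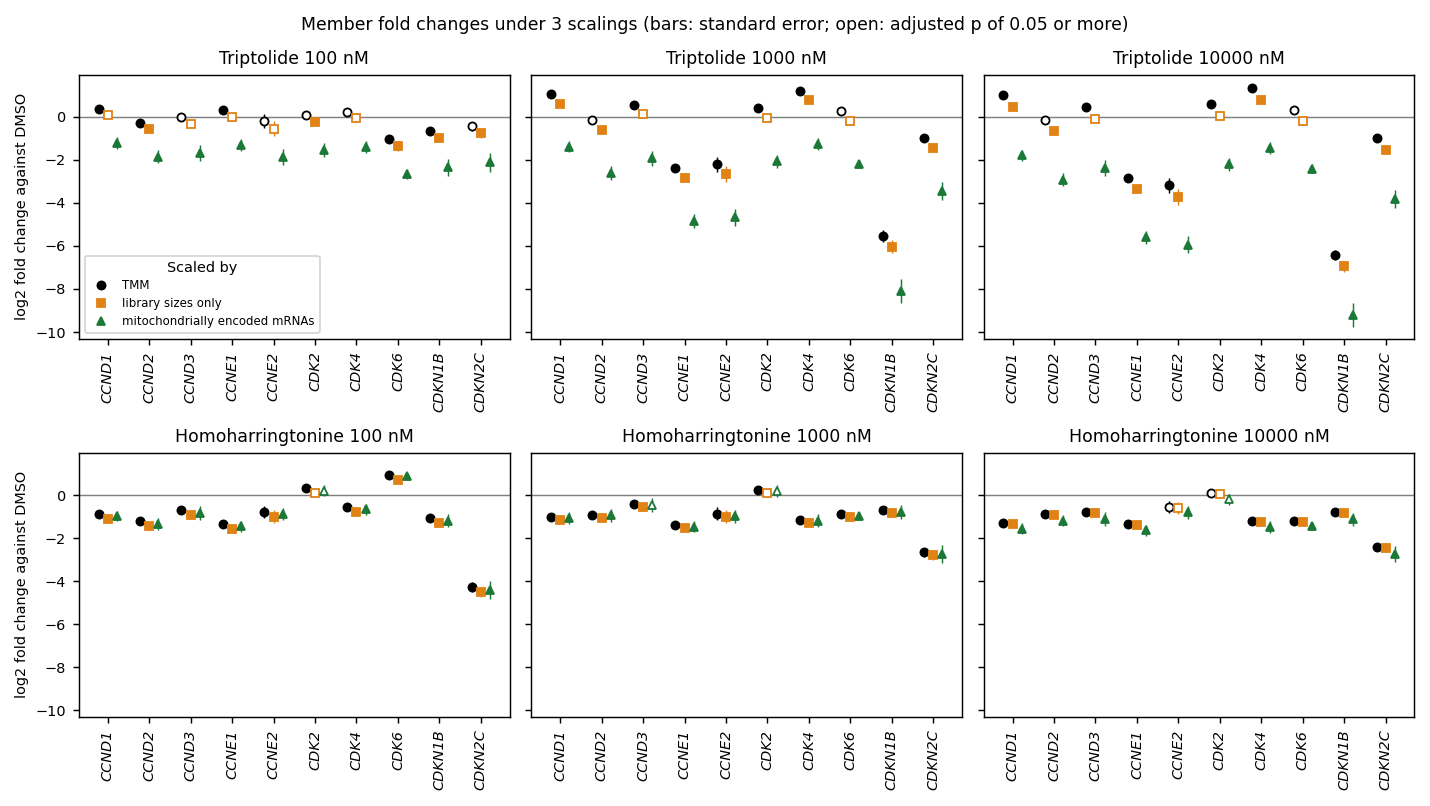
Log2 fold change against DMSO of each member under TMM, library sizes only and mitochondrial scaling, for triptolide and homoharringtonine at 3 doses in nM, with bars for the standard error and open points for an adjusted p of 0.05 or more. All triptolide points are below 0 under mitochondrial scaling, where 4 are called higher by TMM at 1000 and at 10000 nM, and the homoharringtonine points keep their sign, with the exception of CDK2 at 10000 nM.

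**Figure D3:**
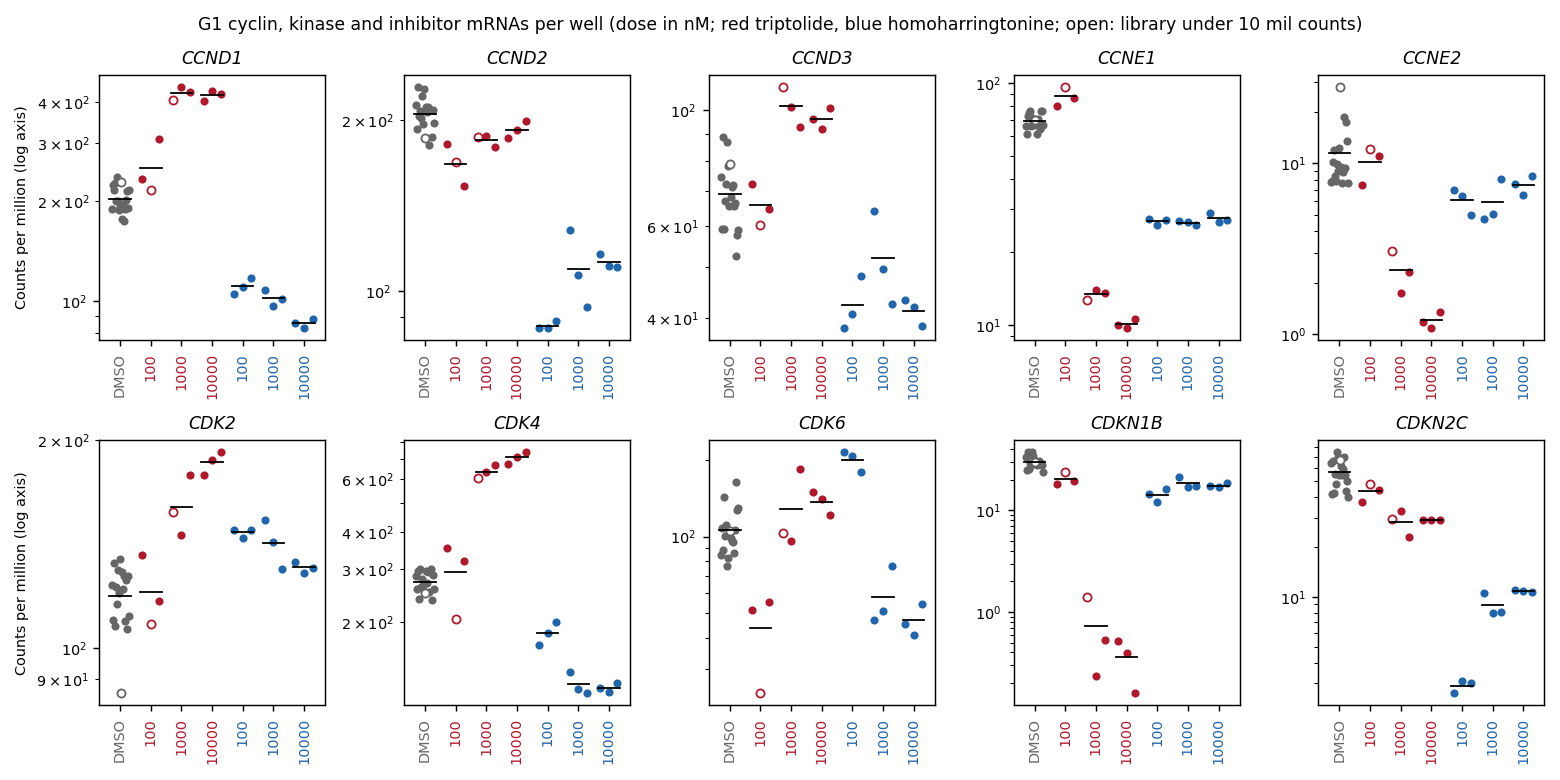
CPM of each member per well on a log axis, for DMSO and the 3 doses in nM of triptolide (red) and homoharringtonine (blue), with open symbols for libraries under 10 M counts. CDKN1B with triptolide drops from 18 to 24.1 CPM at 100 nM to at most 1.42 at the higher doses, while CDKN2C with homoharringtonine is lowest at 100 nM (2.61 to 3.08 CPM).

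The D cyclins carry mitogen signals to CDK4 and CDK6, and the 3 genes parted under triptolide while all 3 fell under homoharringtonine. CCND1 was at 175 CPM in the lowest DMSO well, 201 in the median and 238 in the highest. With triptolide it was at 234, 217 and 309 CPM in the 3 wells at 100 nM, 404, 445 and 428 at 1000 nM, and 404, 431 and 423 at 10000 nM. With homoharringtonine the wells held 105, 110 and 117 CPM at 100 nM, 108, 96.7 and 102 at 1000 nM, and 86.0, 82.8 and 88.1 at 10000 nM. All wells of the 2 higher triptolide doses lay above every DMSO well and all 9 homoharringtonine wells below every one, while at 100 nM of triptolide 1 of 3 wells was above. CCND1 rose 1.99-fold at 10000 nM of triptolide (log2 0.996 ± 0.08 SE, adjusted p = 3.72e-11), a value that was -1.79 under mitochondrial scaling, and it fell by 1.28 on the log2 scale with 10000 nM of homoharringtonine (SE 0.10, adjusted p = 4.24e-11). At 100 nM of triptolide the log2 value was 0.38 (adjusted p = 0.00343, and 0.10 with an adjusted p of 0.526 by library sizes only and -1.21 under mitochondrial scaling). That call rests on replicate 3, without which it was 0.21 with an adjusted p of 0.209.

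CCND2, which U2OS cells expressed at about the CPM of CCND1, lay at 180, 207 and 229 CPM in the lowest, median and highest DMSO well. Triptolide wells held 181, 169 and 153 CPM at 100 nM, 186, 187 and 180 at 1000 nM, and 185, 192 and 199 at 10000 nM, and homoharringtonine wells 86.2, 86.3 and 88.7, then 128, 107 and 94.0, then 116, 111 and 110. The triptolide wells at the 2 higher doses were all inside or at the edge of the DMSO range, and the homoharringtonine wells were all below it. With triptolide CCND2 fell at 100 nM by 0.28 (SE 0.09, adjusted p = 0.0104), but not without replicate 3 (-0.16, adjusted p = 0.250), and it had log2 values of -0.16 and -0.14 at the higher doses (adjusted p = 0.0642 and 0.0871). With homoharringtonine it fell by 1.22 at 100 nM (adjusted p = 1.41e-12) and by 0.90 at both 1000 nM (adjusted p = 4.25e-09) and 10000 nM (adjusted p = 5.26e-11).

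CCND3, the third D cyclin, lay between 52.5 and 89.0 CPM in DMSO wells (median 67.6). It was at 72.3, 60.2 and 64.8 CPM with 100 nM of triptolide, 111, 102 and 93.0 with 1000 nM and 96.3, 92.0 and 101 with 10000 nM, so the 2 higher doses were above all DMSO wells. Homoharringtonine gave 38.2, 40.6 and 48.1 CPM at 100 nM, 64.1, 49.5 and 42.5 at 1000 nM and 43.2, 42.0 and 38.6 at 10000 nM, with 1 well of the middle dose inside the DMSO range. CCND3 rose by log2 0.56 at 1000 nM of triptolide (SE 0.13, adjusted p = 0.000454, and 0.11 with an adjusted p of 0.486 by library sizes only and -1.92 under mitochondrial scaling) and by 0.44 at 10000 nM (adjusted p = 0.00275, and -0.10 by library sizes only, -2.39 under mitochondrial scaling). It fell with homoharringtonine by 0.69, 0.41 and 0.77 at the 3 doses (adjusted p = 0.000177, 0.0187 and 1.25e-05), and the middle call was lost without replicate 2, without replicate 3 and under mitochondrial scaling (-0.46, adjusted p = 0.265). CCND3 is also the member that followed the mitochondrial mRNA share most closely in DMSO wells, in the negative direction. Compared directly at 10000 nM, with no DMSO well in the fit, triptolide wells exceeded homoharringtonine wells by log2 2.36 ± 0.06 in CCND1, 0.84 ± 0.07 in CCND2 and 1.29 ± 0.08 in CCND3 (adjusted p at most 3.19e-07), with no overlap of wells; under mitochondrial scaling the same differences were -0.22, -1.74 and -1.29.

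E cyclins switch on CDK2 late in G1, and both genes fell at the 2 higher doses of triptolide. CCNE1 also fell at all 3 doses of homoharringtonine, and CCNE2 at 100 and 1000 nM only. CCNE1 lay at 61.4, 68.9 and 76.7 CPM in the lowest, median and highest DMSO well. Triptolide wells held 80.2, 96.4 and 86.8 CPM at 100 nM, 12.6, 14 and 13.6 at 1000 nM and 10.0, 9.69 and 10.6 at 10000 nM, and homoharringtonine wells 27.4, 25.9 and 27.2, then 26.7, 26.7 and 25.7, then 28.9, 26.5 and 27.2. All 3 wells at 100 nM of triptolide were above every DMSO well (the second from 8 counts), and all wells of the other 5 groups were below. CCNE1 rose at 100 nM of triptolide by log2 0.30 (SE 0.09, adjusted p = 0.00773, and -0.01 by library sizes only and -1.29 under mitochondrial scaling). Without the filter on low counts that rise was 0.22 with an adjusted p of 0.128. CCNE1 was 5.20-fold lower at 1000 nM (log2 -2.38 ± 0.10, adjusted p = 2.89e-16) and 7.08-fold lower at 10000 nM (log2 -2.82 ± 0.10, adjusted p = 4.12e-18). With homoharringtonine the log2 values were -1.36, -1.40 and -1.36 at the 3 doses (adjusted p at most 6.11e-13), and the lowest and highest of the 9 wells were 25.7 and 28.9 CPM.

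CCNE2, the less abundant E cyclin, was at 7.71, 9.45 and 28 CPM in the lowest, median and highest DMSO well, where the highest is the shallow replicate 10 (16 counts) and the next is 18.6. It held 7.42, 12.0 and 11 CPM at 100 nM of triptolide, 3.09, 1.74 and 2.31 at 1000 nM and 1.19, 1.09 and 1.35 at 10000 nM, all of the last 6 below the DMSO wells. Homoharringtonine wells lay at 7.0, 6.41 and 4.99 CPM at 100 nM, 4.69, 5.06 and 8.08 at 1000 nM and 7.53, 6.48 and 8.43 at 10000 nM, with 1 well of each of the 2 higher doses inside the DMSO range. CCNE2 fell with triptolide by log2 2.20 ± 0.35 at 1000 nM (adjusted p = 4.77e-06) and was at -3.19 ± 0.35 at 10000 nM (adjusted p = 1.31e-08), and had a log2 value of -0.21 at 100 nM (adjusted p = 0.605). With homoharringtonine it fell by 0.79 at 100 nM (adjusted p = 0.0172, lost without replicate 3) and by 0.86 at 1000 nM (adjusted p = 0.0124, lost without replicate 1 or 2), and it was at -0.54 at 10000 nM (adjusted p = 0.0738). At 10000 nM triptolide wells were lower than homoharringtonine wells by log2 1.38 ± 0.09 in CCNE1 (adjusted p = 7.67e-08) and 2.56 ± 0.16 in CCNE2 (adjusted p = 5.71e-08), whereas at 100 nM they were higher in CCNE1 by 1.72 ± 0.18 (adjusted p = 2.57e-07, and 0.10 under mitochondrial scaling).

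Of the kinases, CDK4 moved in opposite directions under the 2 compounds. CDK4, the main partner of D cyclins by level here, was at 236, 270 and 301 CPM in the lowest, median and highest DMSO well. Triptolide wells held 353, 205 and 320 CPM at 100 nM, where the lowest is the library of 70767 counts, 604, 633 and 667 at 1000 nM and 674, 712 and 739 at 10000 nM. Homoharringtonine wells held 168, 184 and 200 CPM, then 137, 119 and 115, then 120, 117 and 125. All wells at the 2 higher triptolide doses were above the DMSO range and all 9 homoharringtonine wells below it. CDK4 rose 2.32-fold at 1000 nM of triptolide (log2 1.21 ± 0.07, adjusted p = 3.09e-13, and -1.24 under mitochondrial scaling) and 2.52-fold at 10000 nM (1.34 ± 0.07, adjusted p = 1.91e-14, and -1.45 under mitochondrial scaling), and was at log2 0.22 at 100 nM (adjusted p = 0.0701). With homoharringtonine it fell by 0.55, 1.14 and 1.20 at the 3 doses (adjusted p = 2.22e-06, 2.84e-11 and 1.64e-12), and the step from 100 to 1000 nM was at -0.60 ± 0.14 (adjusted p = 0.0246). That step was not past the test under mitochondrial scaling (-0.54, adjusted p = 0.438) or without replicate 2 or 3 of the 1000 nM wells or any 1 of the 100 nM wells (adjusted p = 0.0589 to 0.119). Triptolide exceeded homoharringtonine at 10000 nM by log2 2.62 ± 0.07 (adjusted p = 5.06e-11), a difference of 0.04 under mitochondrial scaling (adjusted p over 0.05).

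CDK6, the other D cyclin kinase, fell at 100 nM of triptolide and rose at 100 nM of homoharringtonine, and with homoharringtonine it fell at the higher doses. It was at 76.8, 101 and 164 CPM in the lowest, median and highest DMSO well. Triptolide wells held 51.1, 24.1 and 55.1 CPM at 100 nM, 103, 96.1 and 185 at 1000 nM and 150, 140 and 122 at 10000 nM, and homoharringtonine wells 216, 208 and 180, then 46.7, 50.9 and 76.3, then 45.4, 41.0 and 54.4. The 3 wells at 100 nM of triptolide were below (the second from 2 counts) and the 3 at 100 nM of homoharringtonine above every DMSO well, and the 6 homoharringtonine wells at higher doses were below. CDK6 fell at 100 nM of triptolide by log2 1.03 ± 0.20 (adjusted p = 0.000142) and had values of 0.27 and 0.33 at the higher doses (adjusted p = 0.187 and 0.0561; -2.20 and -2.40 under mitochondrial scaling). With homoharringtonine it rose by log2 0.94 ± 0.15 at 100 nM (adjusted p = 6.46e-06, and 0.88 under mitochondrial scaling) and fell by 0.87 ± 0.19 at 1000 nM (adjusted p = 0.000232) and 1.20 ± 0.18 at 10000 nM (adjusted p = 2.64e-06). The step from 100 to 1000 nM was 3.56-fold lower with homoharringtonine (log2 -1.83 ± 0.20, adjusted p = 0.00192), beside 19.3% of all genes called at that step, and log2 1.22 ± 0.25 with triptolide (adjusted p = 0.0016), beside 31.9%. Under mitochondrial scaling the triptolide step was 0.46 (adjusted p = 0.204). In DMSO wells CDK6 was the member that rose most closely with the mitochondrial mRNA share.

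CDK2, the kinase of the E cyclins, had no value below 0 on the TMM scale with either compound, and was below 0 with triptolide under mitochondrial scaling. It lay at 85.9, 122 and 134 CPM in the lowest, median and highest DMSO well, where the lowest is the shallow replicate 10 and the next is 106. With triptolide it held 136, 108 and 117 CPM at 100 nM, 157, 146 and 178 at 1000 nM and 178, 187 and 192 at 10000 nM. Homoharringtonine wells held 148, 144 and 148, then 153, 143 and 130, then 133, 129 and 130 CPM. The 2 higher triptolide doses and the lowest homoharringtonine dose were above all DMSO wells, and at 10000 nM of homoharringtonine all 3 wells were inside the range. CDK2 rose with triptolide by log2 0.42 at 1000 nM (adjusted p = 0.000255, and -0.04 by library sizes only, -2.06 under mitochondrial scaling) and 0.59 at 10000 nM (adjusted p = 8.78e-07, and 0.06 with an adjusted p of 0.475 by library sizes only and -2.20 under mitochondrial scaling). With homoharringtonine it was at 0.31 at 100 nM (adjusted p = 0.00249) and 0.25 at 1000 nM (adjusted p = 0.0176, lost without replicate 1 or 2). Neither passed by library sizes only (0.085 and 0.11, adjusted p = 0.308 and 0.212) or under mitochondrial scaling (0.20 and 0.18, adjusted p = 0.525 and 0.587). It was at 0.10 at 10000 nM (adjusted p = 0.267, and -0.19 under mitochondrial scaling).

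Each compound had its largest member change in an inhibitor gene: CDKN1B with triptolide at 1000 and 10000 nM and CDKN2C with homoharringtonine at all 3 doses. CDKN1B encodes p27, which binds cyclin and CDK2 complexes. It lay at 23.9, 29.4 and 37.6 CPM in the lowest, median and highest DMSO well. With triptolide it was at 18, 24.1 and 19.6 CPM at 100 nM, from 507, 2 and 178 counts, so the middle well says little. It was at 1.42, 0.233 and 0.534 CPM at 1000 nM (11, 2 and 22 counts) and 0.514, 0.399 and 0.158 CPM at 10000 nM (13, 11 and 4 counts). Homoharringtonine wells held 14.5, 12.0 and 16.3 CPM, then 21.3, 16.9 and 17.4, then 17.2, 16.8 and 18.5, all below the DMSO wells. CDKN1B fell by 0.65 ± 0.15 at 100 nM of triptolide (adjusted p = 0.000867), was 47.0-fold lower at 1000 nM (log2 -5.56 ± 0.28, adjusted p = 8.40e-15) and 85.4-fold lower at 10000 nM (log2 -6.42 ± 0.24, adjusted p = 3.04e-17). The step from 100 to 1000 nM was 30.8-fold (log2 -4.94 ± 0.49, adjusted p = 2.29e-06), and that from 1000 to 10000 nM was -1.03, not past the test. With homoharringtonine it fell by 1.06, 0.69 and 0.80 (adjusted p = 3.61e-07, 6.38e-05 and 1.06e-06), and at 10000 nM the triptolide wells were 46.1-fold below the homoharringtonine wells (log2 -5.53 ± 0.22, adjusted p = 1.09e-09).

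CDKN2C encodes p18, an INK4 inhibitor of CDK4 and CDK6. It lay at 40.2, 54.7 and 74.9 CPM in the lowest, median and highest DMSO well. Triptolide wells held 37.5, 48.2 and 44 CPM, then 29.3, 32.8 and 23.0, then 28.9, 29.0 and 28.9, and homoharringtonine wells 2.61, 3.08 and 3.0 at 100 nM, 10.5, 8.02 and 8.10 at 1000 nM and 11, 10.8 and 10.7 at 10000 nM. The wells at the 2 higher triptolide doses and all homoharringtonine wells were below the DMSO range, and the homoharringtonine wells were lowest at the lowest dose. With homoharringtonine CDKN2C was 19.2-fold lower at 100 nM (log2 -4.26 ± 0.23, adjusted p = 7.65e-14), 6.33-fold lower at 1000 nM (log2 -2.66 ± 0.21, adjusted p = 7.25e-11) and 5.28-fold lower at 10000 nM (log2 -2.40 ± 0.19, adjusted p = 4.91e-11). The step from 100 to 1000 nM was a 3.01-fold rise (log2 1.59 ± 0.20, adjusted p = 0.00273, and 1.67 with an adjusted p of 0.0595 under mitochondrial scaling). With triptolide it had a log2 value of -0.44 at 100 nM (adjusted p = 0.0683) and was at -0.997 at 1000 nM (adjusted p = 6.22e-05) and -1.001 at 10000 nM (adjusted p = 2.14e-05). At 100 nM triptolide wells were 14.9-fold above homoharringtonine wells (log2 3.89 ± 0.23, adjusted p = 4.19e-10, and 2.26 under mitochondrial scaling).

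Compared directly, triptolide and homoharringtonine wells differed in 8 of 10 members at 100 nM (7 higher with triptolide, 1 lower), beside 65.5% of all genes tested (29.7% and 35.8%). They differed in 9 at 1000 nM (6 and 3), beside 66.8% (27.9% and 38.9%), and in all 10 at 10000 nM (7 and 3), beside 88.4% (41.4% and 47%). Under mitochondrial scaling the counts were 1 and 7, 0 and 7, and 0 and 8. Between neighbouring doses, 6 members passed from 100 to 1000 nM of triptolide, beside 31.9% of all genes, and 3 with homoharringtonine, beside 19.3%. From 1000 to 10000 nM, edgeR's quasi-likelihood test called 0 members with either compound: for triptolide 2 had an unadjusted p under 0.05 and DESeq2 called 0, beside 0.0191% of all genes called, and for homoharringtonine 0 had such a p and DESeq2 called 0, beside 1.57%. Without replicate 1 of 1000 nM homoharringtonine 1 member passed at that step. The trend on log10 dose over the 9 wells of a compound was past the test for CCNE1, CCNE2 and CDKN1B (negative) and CDK4 and CDK6 (positive) with triptolide, 5 of 10 members beside 24.7% of all genes, and for CCND1, CDK4 and CDK6 (negative) and CDKN2C (positive) with homoharringtonine, 4 of 10 beside 44%. The steepest slope was that of CDKN1B with triptolide, at log2 -3.02 ± 0.36 per 10-fold dose (adjusted p = 0.000134). Under mitochondrial scaling the slopes with triptolide were -0.032 for CDK4 and 0.11 for CDK6 (adjusted p = 0.481), and that of CCND1 with homoharringtonine did not pass there (-0.30, adjusted p = 0.121) or by library sizes only (-0.11, adjusted p = 0.105). The slopes of the compounds differed in 8 of 10 members, beside 40.4% of all genes. The CDK6 slope with triptolide was also lost without replicate 1 or without replicate 3 of the 100 nM wells (adjusted p = 0.136 and 0.140) and without the libraries under 10 M (adjusted p = 0.0507). The triptolide trend count was 3 without replicate 3 of the 100 nM wells and 7 without replicate 3 of the 1000 nM wells.

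**Figure D4:**
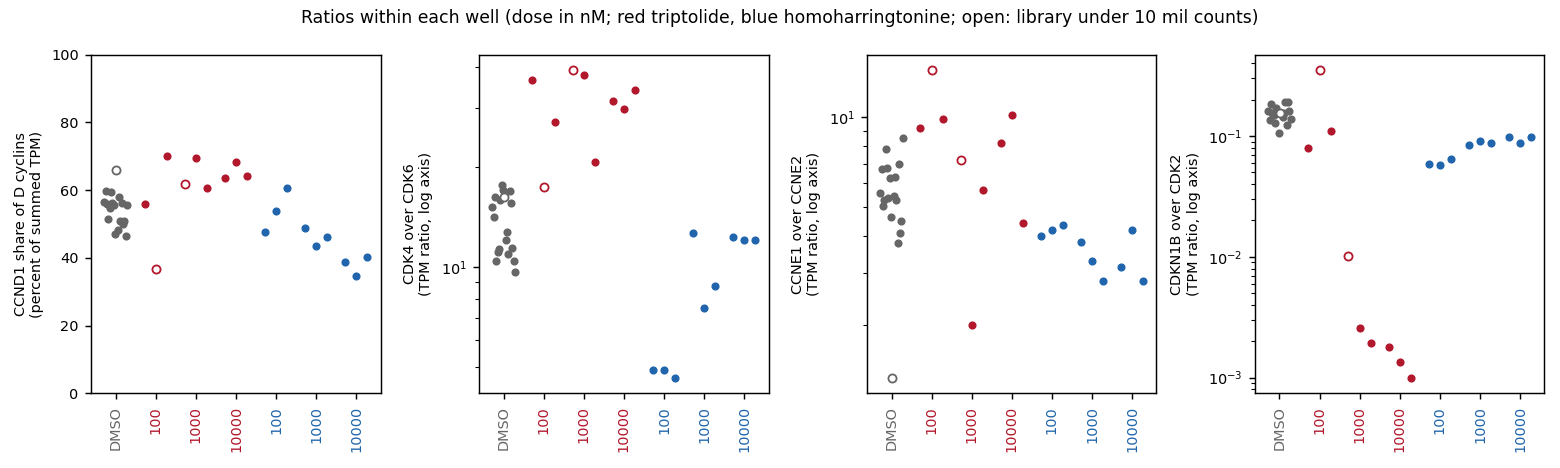
Ratios of member levels within each well, in TPM, for DMSO and for triptolide (red) and homoharringtonine (blue) at 3 doses in nM, with open symbols for libraries under 10 M counts. CDK4 over CDK6 is 31.8 at 10000 nM of triptolide against 13.6 in DMSO on average, and CDKN1B over CDK2 falls to near 0 at the 2 higher triptolide doses.

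Ratios within a well do not depend on the scaling between libraries, and are given without a test. CCND1 made up 54.4 ± 5.01% of the summed D cyclin TPM in the 18 DMSO wells (46.4% to 66.0%). The highest of these is the shallow replicate 10, and the next is 59.6%. At 10000 nM of triptolide the CCND1 share was 63.6%, 68.3% and 64.2%, above every DMSO well of at least 10 M counts. At 100 nM it was 56.0%, 36.6% and 70.0%. Such a share was not particular to triptolide. Its mean was 66.8% with 100 nM of nilotinib, 65.3% with 1000 nM of MK-2206 and 64.4% with 100 nM of pyrazolanthrone. At 10000 nM these compounds had means of 53.2%, 59.6% and 51.3%. Miglitol wells at 1000 nM held 53.7%, 67.2% and 62.7%. At 10000 nM of homoharringtonine the CCND1 share was 38.7%, 34.7% and 40.2%, below all DMSO wells. CDK4 over CDK6 was 13.6 ± 2.73 in DMSO wells (9.68 to 17.6). With triptolide it was 36.5, 17.4 and 27.3 at 100 nM, 39.1, 37.7 and 20.7 at 1000 nM and 31.6, 29.8 and 34.1 at 10000 nM, where only the well of 70767 counts lay inside the DMSO range. With homoharringtonine it was 4.89, 4.89 and 4.63 at 100 nM, below all DMSO wells, and 12.3, 12.0 and 12.1 at 10000 nM, inside their range. CCNE1 over CCNE2 was 5.54 ± 1.64 in DMSO wells (1.33 to 8.51), 8.20, 10.2 and 4.43 at 10000 nM of triptolide and 3.13, 4.20 and 2.81 at 10000 nM of homoharringtonine, so both groups overlapped the DMSO wells. The lowest DMSO well is again replicate 10, and the next is 3.80, above the homoharringtonine wells of 3.13 and 2.81. CDKN1B over CDK2 was 0.153 ± 0.022 in DMSO wells and 0.00179, 0.00134 and 0.000992 at 10000 nM of triptolide. In homoharringtonine wells at that dose it was 0.0990, 0.0873 and 0.0974, below the lowest DMSO well at 0.106.

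Of the other 4 compounds, nilotinib at 10000 nM changed the most members. There, 8 of 10 passed the test (2 higher, 6 lower), beside 14.4% of all genes tested (7.97% higher, 6.39% lower), with a median log2 fold change of -0.38 beside 0.01 over all genes. CCNE1 was at 46.4, 48.6 and 40.4 CPM and CCNE2 at 4.47, 4.88 and 3.21 CPM, all below the DMSO wells, and they fell by 0.61 ± 0.08 (adjusted p = 2.24e-06) and 1.35 ± 0.30 (adjusted p = 0.00263). CDKN2C, at 24.5, 29.7 and 34.4 CPM, and CDKN1B, at 22.3, 22.8 and 23.3 CPM, were also below all DMSO wells and fell by 0.92 ± 0.18 (adjusted p = 0.000754) and 0.38 ± 0.11 (adjusted p = 0.0214). The wells thus held less of both E cyclin and both inhibitor mRNAs. CDK2, at 86.1, 93.0 and 93.7 CPM, fell by 0.39 ± 0.09 (adjusted p = 0.00323) and lay above the shallow DMSO replicate only. CCND3, at 45.0, 55.3 and 50.5 CPM, fell by 0.45 ± 0.13 (adjusted p = 0.021). CCND2 rose by 0.24 ± 0.07 (242, 234 and 246 CPM; adjusted p = 0.0146, and -0.48 under mitochondrial scaling) and CDK6 by 0.70 ± 0.16 (204, 176 and 135 CPM; adjusted p = 0.00377, and 0.05 under mitochondrial scaling), while CCND1 was at 0.12 (adjusted p = 0.413) and CDK4 at -0.06 (adjusted p = 0.67). Mitochondrial scaling moved all genes here by a median of -0.70 from TMM. At 10000 nM of pyrazolanthrone, miglitol and MK-2206 that median shift was -0.37, -0.48 and -0.26.

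The mitochondrial mRNA share was 0.387%, 0.350% and 0.378% in replicates 1, 2 and 3 of these nilotinib wells. The highest DMSO well held 0.367% (replicate 16) and the next 0.313%. Nilotinib replicates 1 and 3 thus lay above all DMSO wells, and the fit that follows has little overlap in this share. With that share as a term in the fit, an alternative chosen after the data had been seen, 5 members passed, and CDK6 (0.29, adjusted p = 0.148), CDKN1B (-0.13, adjusted p = 0.373) and CCND3 (-0.10, adjusted p = 0.489) did not. The count was 3, 6 and 5 without replicates 1, 2 and 3. CDKN1B and CCND2 did not pass without any 1 of the 3, CCND3 without replicate 1 or 3, and CDK6 and CDK2 without replicate 1.

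At lower nilotinib doses CCND1 rose. Its log2 value was above 0 in all 12 comparisons of the 4 compounds besides triptolide and homoharringtonine (0.07 to 0.65). Miglitol, with 0% of all genes called, had 0.22, 0.29 and 0.08 at the 3 doses. The source of this shared sign was not tested. With nilotinib CCND1 was at 267, 340 and 357 CPM at 100 nM and 325, 316 and 259 at 1000 nM, all above the DMSO wells. Its log2 values were 0.65 ± 0.10 (adjusted p = 0.000132) and 0.55 ± 0.10 (adjusted p = 0.000965). With replicate number as a block they were 0.60 and 0.47 (adjusted p = 0.983 and 0.686). That fit kept only DMSO replicates 1 to 3, so it also had fewer DMSO wells. At 100 nM CCND1 was the 1 member called, beside 9.08% of all genes, and 2 passed without replicate 1. At 1000 nM 3 members passed, beside 3.95%, the others being CDKN2C, lower by 0.78 ± 0.19 (24.5, 39.9 and 34.3 CPM; adjusted p = 0.0184), and CDK6, higher by 0.60 ± 0.17 with 1 of 3 wells above the DMSO range (221, 117 and 147 CPM; adjusted p = 0.0496). Without replicate 1 or without replicate 3 of these wells 1 member passed. The nilotinib dose trend had 1 member, CCNE1, at -0.30 ± 0.07 per 10-fold dose (adjusted p = 0.0482), beside 3.09% of all genes, and 4 members without replicate 1 of the 100 nM wells.

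Pyrazolanthrone, an inhibitor of the JNK kinases, had 1, 0 and 2 members past the test at the 3 doses, beside 4.77%, 0% and 7.65% of all genes. CCND1 rose at 100 nM by log2 0.50 ± 0.09 (250, 288 and 305 CPM, all above DMSO; adjusted p = 0.00411), a call lost without replicate 2 or without replicate 3, when 0 members passed. At 1000 nM 1 member had an unadjusted p under 0.05 and DESeq2 called 0, and over all genes edgeR called 0, with 1033 at an unadjusted p under 0.05 and 7 by DESeq2. At 10000 nM CCND2 rose by 0.29 ± 0.07 (277, 244 and 247 CPM, all above DMSO; adjusted p = 0.00828, and -0.10 under mitochondrial scaling) and CCNE1 fell by 0.26 ± 0.07 (63.5, 60.3 and 53.8 CPM, 2 of 3 below DMSO; adjusted p = 0.0252). Without replicate 1 of these wells 0 members passed, and without replicate 2 or 3 there was 1. The dose trend was past the test for CCND1 (-0.20 ± 0.05 per 10-fold dose, adjusted p = 0.0321) and CCNE2 (-0.28 ± 0.07, adjusted p = 0.0299), beside 18.6% of all genes, with 0 to 5 members when 1 well was left out, the 5 without replicate 1 of the 100 nM wells. Over the pyrazolanthrone, nilotinib, miglitol and MK-2206 wells together, the mitochondrial mRNA share was higher at the top dose. Its part in the trends of these compounds was not tested. Miglitol, with 0% of all genes called at each dose, had 15.9% called in its trend.

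MK-2206, an inhibitor of the AKT kinases, had 0, 1 and 2 members past the test at the 3 doses, beside 0.0648%, 1.52% and 3.15% of all genes. At 100 nM 3 members had an unadjusted p under 0.05 and DESeq2 called 0. CCND1 rose at 1000 nM by log2 0.41 ± 0.09 (261, 261 and 286 CPM, all above DMSO; adjusted p = 0.019). In this comparison the replicate numbers went together between treated and DMSO wells, as in no other of the 19 comparisons with 3 pairs. This does not show that the wells were paired. With the replicate block, which kept only DMSO replicates 1 to 3, the CCND1 value was 0.36 (adjusted p = 0.258). It was also not past the test without replicate 1 or without replicate 3, when 0 members passed. At 10000 nM CCND2 fell by 0.46 ± 0.07 (152, 149 and 147 CPM; adjusted p = 0.000229) and CCNE1 by 0.41 ± 0.07 (56.7, 53.1 and 47.5 CPM; adjusted p = 0.00151), all wells being below DMSO, and CCNE2 was at -1.003 ± 0.28 (adjusted p = 0.0543). Under mitochondrial scaling CCND2 (-0.73, adjusted p = 0.211) and CCNE1 (-0.66, adjusted p = 0.198) did not pass. The CCNE1 call was also lost with the replicate block (-0.36, adjusted p = 0.192). Miglitol, whose target is an intestinal enzyme, had 0 members past edgeR's test at each dose, with 1, 3 and 2 at an unadjusted p under 0.05 and 0 by DESeq2. Over all genes 0% were called, with 944, 1563 and 4195 at an unadjusted p under 0.05 and 1, 117 and 3 by DESeq2. The trends with miglitol and MK-2206 had 0 members by edgeR, 3 and 4 at an unadjusted p under 0.05 and 2 and 3 by DESeq2, beside 15.9% and 0.028% of all genes. Without replicate 1 of the 100 nM or replicate 2 of the 1000 nM miglitol wells 2 members passed that trend.

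The rest of the G1 to S machinery was counted in 4 lists at 10000 nM, where 32.2% of all genes were called higher and 39.7% lower with triptolide, and 36.7% and 37.2% with homoharringtonine. The 4 tested of 6 other CDK inhibitors had 1 higher and 2 lower with triptolide (median log2 -0.32) and 3 higher and 0 lower with homoharringtonine (median 1.02). CDKN1A (p21), the best known p53 target among them, fell by 0.72 ± 0.12 with triptolide (adjusted p = 1.28e-05) and rose by 1.28 ± 0.09 with homoharringtonine (adjusted p = 9.20e-12), where CDKN2D (p19) also rose, by 1.16 ± 0.13 (adjusted p = 3.46e-08). The fourth tested gene, CDKN3, was at 0.26 with homoharringtonine (adjusted p = 0.092), and CDKN2A and CDKN2B did not pass the filter on low counts. Among 13 RB and E2F genes, triptolide had 6 higher and 7 lower (median -1.05), with E2F6 at -5.34 ± 0.26 (adjusted p = 4.04e-15), and TFDP1, a dimer partner of E2F, at 1.38 ± 0.07 (adjusted p = 6.04e-15). Homoharringtonine had 2 higher and 5 lower (median -0.20), among them E2F2 at -2.76 ± 0.21 (adjusted p = 1.48e-11) and TFDP1 at -1.80 ± 0.09 (adjusted p = 4.05e-15), with RB1 at 1.25 ± 0.23 (adjusted p = 3.27e-05). The positive triptolide values are on the TMM scale and each is smaller in size than the median shift of all genes from TMM to mitochondrial scaling, -2.76.

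Of 17 genes of CDK activation and turnover, triptolide had 4 higher and 9 lower (median -1.34) and homoharringtonine 9 higher and 4 lower (median 0.52). CDC25A, the phosphatase that activates CDK2, fell by 5.37 ± 0.15 with triptolide (adjusted p = 1.73e-19) and 1.23 ± 0.08 with homoharringtonine (adjusted p = 2.28e-12). CDK7, the catalytic subunit of the CDK-activating kinase, was at -4.23 ± 0.19 with triptolide (adjusted p = 5.03e-16) and 2.27 ± 0.11 with homoharringtonine (adjusted p = 6.16e-15). SKP2, the F-box protein that marks p27 for degradation, fell by 4.34 ± 0.16 with homoharringtonine (adjusted p = 3.33e-17). All 5 S phase and mitotic genes fell with triptolide (median -2.69), led by CCNF at -4.18 ± 0.14 (adjusted p = 3.83e-18) and CCNA2 at -3.35 ± 0.28 (adjusted p = 1.38e-10), and with homoharringtonine 1 rose (CDK1, 0.88 ± 0.26, adjusted p = 0.00394) and 2 fell (median 0.22). The medians over all genes in these fits were -0.17 and -0.05. With nilotinib at 10000 nM, E2F2 fell by 1.25 ± 0.19 (adjusted p = 5.12e-05) and E2F1 by 0.84 ± 0.14 (adjusted p = 0.000152), 2 of the 4 of 13 RB and E2F genes that fell there (beside 6.39% of all genes), and CDKN1A rose by 0.43 ± 0.10 (adjusted p = 0.00377).

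For each member the most similar gene was sought among 9371 protein-coding genes by Pearson's r of mean log2(CPM + 1) over the 19 groups, DMSO among them. The strong effect of triptolide and homoharringtonine enters every r, so r is a description. CDKN1B was closest to C6orf47 (r = 0.992), CDK4 to LARGE2 (0.991) and CCND1 to TGM2 (0.988). CCNE1 was closest to ZNF367 (0.973), CCND2 to PSPH (0.960), CCND3 to TXN2 (0.957), CDKN2C to ALKBH5 (0.953) and CDK2 to IDH3B (0.952). The lowest best matches were those of CDK6, to CCBE1 (0.927), and CCNE2, to FAM111B (0.893).

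CCNE2 is at chr8:94879770-94896678 (minus strand). Exons of 3 members overlap a protein-coding gene on the other strand over 10.4% or more of their length. CDK4 shares 1369 exonic bases (44.2%) with TSPAN31, CCNE2 1629 (37.0%) with INTS8 and CCND1 497 (10.4%) with LTO1. The library kit keeps strand, but whether the authors' counting used it is not given in the sources used here. TSPAN31 had medians of 12.0, 30.3 and 24.0 CPM in DMSO, 10000 nM triptolide and 10000 nM homoharringtonine wells, against 270 and 712 CPM for CDK4 in the first 2. INTS8 had 19.2, 14.9 and 39.3 CPM, above CCNE2 in all 3 groups, and LTO1 17, 11.2 and 54.9 CPM. CCNE2 values are therefore less certain than those of the other members. With 10000 nM of homoharringtonine, LTO1 also came nearer to the level of CCND1, and TSPAN31 to that of CDK4, than in DMSO wells. The annotated pseudogenes of CCND2, CCND3 and CDK4 had at most 4 counts in any library.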

How the data were processed

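U2OS libraries were made from polyadenylated RNA with a stranded kit. Per the labels, the authors aligned reads to GRCh38 and deposited, for each well, RSEM's estimated count (expected count), TPM and FPKM per gene, with gene length and effective length. HTSeq and DESeq2 are also named in the submitters' processing notes, without versions or roles. FPKM was not used. TPM served for comparing genes and for ratios. The deposited expected counts were taken to the nearest whole number for the tests, and CPM were computed from them with TMM factors over all 72 wells. Gene symbols and positions came from GENCODE 44.

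Tests used edgeR 4.0.16 in R 4.3.3 (filterByExpr with a smallest count of 10, TMM, glmQLFit, glmQLFTest) on all genes of a fit, with Benjamini-Hochberg adjustment over all genes tested and a threshold of 0.05. The standard error is the log2 fold change divided by the square root of the test's F. Each compound and dose was set against the 18 DMSO wells, triptolide against homoharringtonine at the same dose, and each dose of these 2 against the next, and slopes on log10 dose were fitted. Other lists were named by the 3 largest changes per direction at 10000 nM, and the most similar gene by Pearson's r among genes with a mean of at least 10 CPM. Replicate numbers went together only for 1000 nM MK-2206 (r of 0.349 to 0.631 between same-numbered treated and DMSO wells). The scripts were tested on simulated data. Alternatives were DESeq2 1.42.0, other scalings, no filter, leaving out wells, the replicate block, 1 fit over all wells and, chosen after seeing the data, fragment length and mitochondrial mRNA share as covariates. Against DMSO, the replicate block kept only DMSO replicates 1 to 3, so a call lost there may reflect fewer DMSO wells. The mitochondrial mRNA share covariate was not fitted for triptolide. The members and lists were chosen with earlier results of these data known.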

Additional observations from a re-analysis of the deposited data

Results flagged for a closer look

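For 8 of the 10 members the dose trend differed between triptolide and homoharringtonine, beside 40.4% of the 19185 genes tested. The test was edgeR's quasi-likelihood test of the interaction of compound and log10 dose over 18 wells, adjusted over all genes tested. Values are the triptolide slope minus the homoharringtonine slope, in log2 per 10-fold dose. The difference was -3.19 ± 0.36 (SE) for CDKN1B (adjusted p = 2.34e-06), -1.59 ± 0.21 for CCNE2 (adjusted p = 1.00e-05), -1.52 ± 0.21 for CCNE1 (adjusted p = 2.17e-05) and -1.17 ± 0.19 for CDKN2C (adjusted p = 0.000103). It was 1.73 ± 0.25 for CDK6 (adjusted p = 2.96e-05), 0.89 ± 0.14 for CDK4 (adjusted p = 5.33e-05), 0.51 ± 0.11 for CCND1 (adjusted p = 0.00137) and 0.37 ± 0.09 for CDK2 (adjusted p = 0.00245). Under mitochondrial scaling the CDK2 difference was -0.12, and those of CDK4 (0.39, adjusted p = 0.10) and CCND1 (0.01, adjusted p = 0.988) were not past the test. By library sizes only, those of CDK2 (0.15, adjusted p = 0.149) and CCND1 (0.28, adjusted p = 0.0524) did not pass. Without the filter on low counts CDK2 did not pass either (0.32, adjusted p = 0.0501). CCND2 (-0.08) and CCND3 (0.25) did not pass.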

How the results depend on the processing

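Of 123 member values past the test, DESeq2 kept the direction and the call of 122, leaving out libraries under 10 M counts 100 of 103, no filter on low counts 110, library sizes only 106 (4 reversed), mitochondrial scaling 70 (32 reversed), and the replicate block 103. Leaving out 1 well kept 604 of 669. With 1 fit over all wells and with the fragment length covariate it was 66 of 67 each. With the mitochondrial mRNA share covariate, which was not fitted for triptolide, it was 43 of 46, so no triptolide value is among these. Replicate numbers went together in 1 of 19 comparisons with 3 pairs (mean r of -0.065 over all), which does not show pairing, so the block was read as an alternative. Against DMSO the block kept only DMSO replicates 1 to 3. The cause of these changes was not tested.

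Under mitochondrial scaling the reversed log2 values were, with triptolide against DMSO, -1.29 (CCNE1) and -1.21 (CCND1) at 100 nM, -1.38 (CCND1), -1.92 (CCND3), -2.06 (CDK2) and -1.24 (CDK4) at 1000 nM, and -1.79, -2.39, -2.20 and -1.45 for the same genes at 10000 nM. CCND2 was -0.10 with 10000 nM pyrazolanthrone and -0.48 with 10000 nM nilotinib. Triptolide against homoharringtonine gave -0.27 (CCND1), -0.89 (CCND3), -0.58 (CCND2), -0.74 (CDK4) and -1.01 (CCNE2) at 100 nM, -1.24 (CDK6), -0.33 (CCND1), -1.46 (CCND3), -1.67 (CCND2), -0.72 (CDKN2C) and -0.0506 (CDK4) at 1000 nM, and -0.97 (CDK6), -0.22 (CCND1), -1.29 (CCND3), -1.74 (CCND2), -1.10 (CDKN2C) and -2.01 (CDK2) at 10000 nM. The step of CCND1 from 100 to 1000 nM of triptolide was -0.16, the CDK4 trend -0.0321 and the CDK2 difference of trends -0.12. By library sizes only, CCNE1 was -0.0147 at 100 nM, CDK2 -0.0357 at 1000 nM and CCND3 -0.10 at 10000 nM of triptolide, and CDK2 -0.0024 between the compounds at 10000 nM.

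Counts of members past the test moved by over 1.5 times as follows. Mitochondrial scaling gave 10 instead of 5 with 100 nM triptolide, 0 instead of 1 and 2 with 100 and 10000 nM pyrazolanthrone, 2 and 1 instead of 1 and 3 with 100 and 1000 nM nilotinib, 0 instead of 1 and 2 with 1000 and 10000 nM MK-2206, 1 instead of 3 at the 100 to 1000 nM step of homoharringtonine, and 8, 9 and 9 instead of 5, 1 and 0 in the trends of triptolide, nilotinib and miglitol. The replicate block gave 0 and 1 with 100 and 10000 nM pyrazolanthrone, 0 with 100 and with 1000 nM nilotinib, 3 with 10000 nM miglitol, 0 and 1 with 1000 and 10000 nM MK-2206, 1 at that homoharringtonine step and 2 in the nilotinib trend. The fragment length covariate gave 0 with 100 nM pyrazolanthrone and 2 with 100 nM nilotinib and with 1000 nM MK-2206. The mitochondrial share covariate gave 4, 5 and 5 with nilotinib at the 3 doses and 2 with MK-2206 at 100 and at 1000 nM. Without a filter there were 0 with 10000 nM pyrazolanthrone and 1000 nM MK-2206, 0 in the pyrazolanthrone and nilotinib trends and 1 in that of miglitol. DESeq2 gave 2 with 1000 nM MK-2206 and 5, 5, 2 and 3 in the trends of pyrazolanthrone, nilotinib, miglitol and MK-2206, and library sizes only 0 and 1 in those of nilotinib and miglitol. 1000 nM MK-2206 had 2 without libraries under 10 M counts and 2 in 1 fit over all 72 wells, where 100 nM had 1. With 1 well left out, counts ranged from 3 to 6 (100 nM triptolide: 5, 6 and 3 without replicates 1, 2 and 3), 0 to 1 (100 and 10000 nM pyrazolanthrone, 1000 nM MK-2206, the homoharringtonine step to 10000 nM), 1 to 2 (100 nM nilotinib), 1 to 3 (1000 nM nilotinib), 3 to 6 (10000 nM nilotinib), and in trends 3 to 7 (triptolide), 0 to 5 (pyrazolanthrone), 0 to 4 (nilotinib) and 0 to 2 (miglitol). Of 197 member values not past the test, 103 had the other sign in at least 1 setting and 68 passed in at least 1. Depth limits CDKN1B at the higher triptolide doses, where wells held 2 to 22 counts, and the library of 70767 counts.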
